A study of Mus musculus with 36 samples.

Results

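The genes described here handle thyroid hormone outside the thyroid gland. They are the plasma membrane transporter gene Slc16a10, the deiodinase gene Dio1, the cytosolic binding protein gene Crym, the receptor genes Thra and Thrb, and Trhde, which encodes an enzyme that degrades thyrotropin-releasing hormone. These 6 genes were chosen by name from the 78239 genes of the count files, and all of them were found there under their Ensembl identifiers. They were measured in liver, heart and kidney of untreated male C57BL/6NCrl mice of genotype WT (wild type) on a standard chow diet, at ages of 8, 10 and 12 weeks. Each of the 9 tissue-by-age groups holds 4 libraries, and the 36 libraries hold between 21031599 and 33637390 read pairs counted on genes. The labels do not say which libraries of different tissues came from the same mouse. Levels are given in CPM, the pairs counted on a gene for every 1000000 pairs counted on all genes of the library, without further scaling. The tissue labels matched the defining markers, since 6 hepatocyte genes together reached 78483 to 118563 CPM in liver, 6 cardiomyocyte genes 34469 to 46419 CPM in heart and 6 proximal tubule genes 25502 to 32523 CPM in kidney.

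The thyroid secretes mostly thyroxine, which has little action of its own. Cells take up thyroxine and triiodothyronine through membrane transporters, deiodinases remove iodine atoms from them, and triiodothyronine binds nuclear receptors that sit on target genes and switch them between repression and activation. Liver and kidney are the tissues in which type 1 deiodinase is best known, while the heart is known for receptor alpha and for its response in contraction genes. Upstream of the thyroid, thyrotropin-releasing hormone from the hypothalamus drives thyrotropin release from the pituitary, and the ectoenzyme encoded by Trhde cleaves that hormone.

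On genome build GRCm39, Dio1 (ENSMUSG00000034785) lies on the minus strand at chr4:107148662-107164366, and Trhde (ENSMUSG00000050663) on the minus strand at chr10:114234726-114638537. Slc16a10 (ENSMUSG00000019838) occupies chr10:39909448-40018304 and Crym (ENSMUSG00000030905) chr7:119785530-119801514, both on the minus strand. Thra (ENSMUSG00000058756) is on the plus strand at chr11:98629109-98661924, and Thrb (ENSMUSG00000021779) on the minus strand at chr14:4429815-4809435. All 6 encode proteins. STAR leaves out a read pair that touches exons of more than 1 gene when strand is disregarded, and this bears on Thra most. Thra shares 1694 exon bases, or 21.37% of its exon length, with Nr1d1, a repressor of the circadian clock on the opposite strand. Against the sum of both single-strand columns, which also takes in Nr1d1 pairs at the overlap, the column used here left out 75.77% of the pairs on Thra in liver, 41.26% in heart and 41.37% in kidney. Trhde shares 856 bases with the opposite-strand long noncoding RNA gene Gm15723, and 16.84% of its liver pairs were left out. For Dio1, Slc16a10, Thrb and Crym, at most 0.835% was left out in any tissue.

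The promoter of Dio1 is shown because Dio1 is a textbook target of the thyroid hormone receptors and was among the genes whose levels varied most between liver libraries. The 250 bases come from the RefSeq promoter table for GRCm38.p6, in which 4 of the 6 genes had an entry, and they matched a single place in GRCm39, chr4:107164366-107164615 on the minus strand, which ends at the first annotated base of the gene.
Dio1: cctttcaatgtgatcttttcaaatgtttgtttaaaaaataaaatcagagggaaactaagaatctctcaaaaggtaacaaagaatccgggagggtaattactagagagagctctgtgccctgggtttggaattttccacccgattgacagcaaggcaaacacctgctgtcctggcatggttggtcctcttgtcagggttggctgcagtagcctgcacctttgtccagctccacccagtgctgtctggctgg
No letters are in capitals because none of the 3 motifs searched on both strands was found in it. These were the receptor half-site AGGTCA, the direct repeat of that half-site with 4 bases between (every match of which also counts as a half-site match) and the TATA box core TATAAA. Of 32851 promoters of the same length, 14% hold the half-site, 0.0152% the direct repeat and 12.4% the TATA box core. The absence of a match says only that these letters are not in this window.

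**Figure D1:**
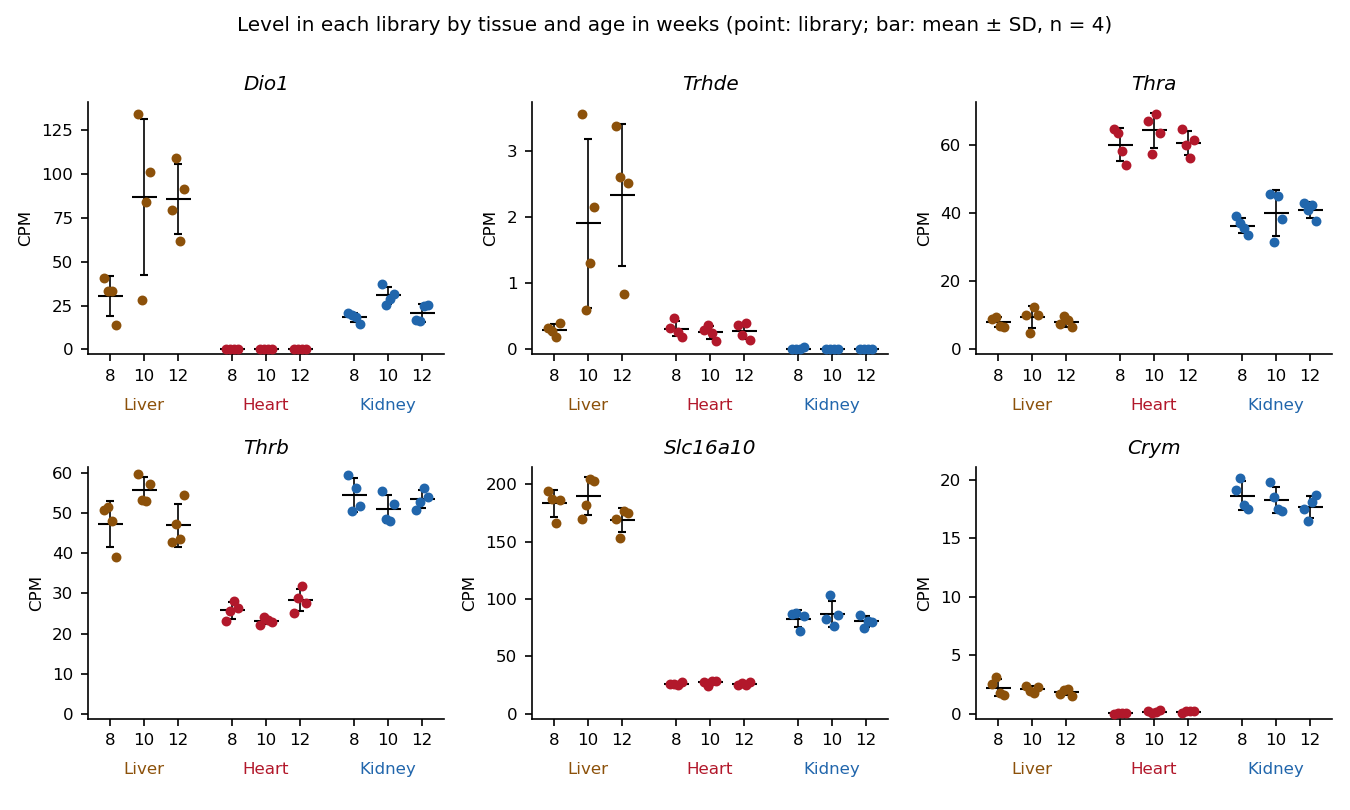
Level of each gene in CPM (vertical axis) in every library of liver, heart and kidney at 8, 10 and 12 weeks (horizontal axis); points are libraries and bars the mean ± SD of 4. Dio1 and Trhde spread widely in liver, with 10-week replicate 2 near the 8-week libraries, while Slc16a10, Thra and Crym separate by tissue far more than by age. Thrb is lower in heart than in liver and kidney, which overlap.

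Across tissues, a call needed a log2 fold change beyond 1 in size as well as an adjusted p under 0.05 in edgeR's quasi-likelihood test. Among genes that passed the filter on low counts in both tissues, it called Slc16a10, Thra and Thrb between liver and heart. It called Slc16a10, Dio1, Crym and Thra between liver and kidney, and Slc16a10 and Thra between kidney and heart. Dio1 and Crym in heart, and Trhde in heart and kidney, failed that filter. They entered the model through other tissues, so their differences to these tissues are descriptions. The same rule called 55.3%, 47.8% and 52.6% of the 19716 genes tested in these 3 comparisons, so that a difference of this size between tissues was common. Folds between tissues rest on scaling factors (TMM) that differ between tissues. Without them, the log2 differences of Thra, Thrb and Slc16a10 shift by -0.26 for liver against heart, by -0.79 for liver against kidney and by 0.53 for kidney against heart.

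Slc16a10 encodes MCT10, a transporter of aromatic amino acids and iodothyronines. In liver its level lay between 153 and 204 CPM over 12 libraries with a median of 179, in kidney between 71.8 and 103 CPM with a median of 83.6, and in heart between 24.5 and 28.9 CPM with a median of 26.3. No library of one tissue overlapped another tissue. The log2 fold change was 3.03 ± 0.05 (SE) for liver against heart, 1.91 ± 0.05 for liver against kidney and 1.13 ± 0.05 for kidney against heart, with adjusted p-values in edgeR of 4.07e-33, 1.41e-27 and 6.29e-21. It was also among the steadiest genes of the group, with coefficients of variation between 3.98% and 13.1% within the 9 groups.

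Dio1, the type 1 deiodinase that activates thyroxine by outer ring deiodination and also clears reverse triiodothyronine, was abundant in liver and kidney and had no count in any heart library. Its liver level ranged from 13.9 to 134 CPM with a median of 70.8, and its kidney level from 14.8 to 37.1 CPM with a median of 22.9. The heart libraries together held 307075121 counted pairs without a pair on Dio1, which allows a level of up to 0.00977 CPM over the 12 libraries. Against that floor of 3 counts over the tissue, the mean level was at least 6914-fold higher in liver and at least 2385-fold higher in kidney. Liver exceeded kidney by 2.21 ± 0.18 on the log2 scale (adjusted p = 2.78e-11, edgeR), although the ranges of the libraries overlapped.

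Crym encodes mu-crystallin, a cytosolic protein that binds triiodothyronine. It was highest in kidney, at 16.5 to 20.1 CPM in kidney (median 17.9), 1.55 to 3.12 CPM in liver (median 1.98) and 0 to 0.330 CPM in heart (median 0.111). The heart values rest on 45 counts in all. The log2 fold change was 6.52 ± 0.15 for kidney against heart, 4.17 ± 0.17 for liver against heart and -2.35 ± 0.10 for liver against kidney.

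The receptor genes ran in opposite directions across tissues. Thra, which encodes receptor alpha and by splicing a form that does not bind the hormone, was highest in heart at 54.3 to 69.1 CPM, intermediate in kidney at 31.4 to 45.6 CPM and lowest in liver at 4.93 to 12.4 CPM, with no overlap. The log2 fold change of Thra was -2.60 ± 0.09 for liver against heart, -1.41 ± 0.09 for liver against kidney and -1.19 ± 0.08 for kidney against heart. With both single-strand columns summed, Thra kept its differences to heart at -1.38 for liver and -1.15 for kidney, but liver against kidney was -0.23 with an adjusted p of 0.144 in edgeR. Thrb, which encodes receptor beta, was lower in heart at 22.2 to 31.8 CPM than in liver at 39.1 to 59.8 CPM and kidney at 48.0 to 59.6 CPM. Liver exceeded heart by 1.22 ± 0.05 and kidney exceeded heart by 0.52 ± 0.05 on the log2 scale. Liver against kidney depended on scaling for Thrb, at 0.71 ± 0.05 with TMM factors and -0.09 without them. Without the factors, liver against heart was 0.96 and kidney against heart 1.04 for Thrb, and kidney against heart was -0.66 for Thra, so that 2 of these calls were lost and 1 was gained at a log2 fold change of 1.

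Trhde encodes the thyrotropin-releasing hormone degrading ectoenzyme. It was scarce throughout, at 0.190 to 3.56 CPM in liver (494 counts in all), 0.124 to 0.473 CPM in heart (88 counts) and a single count in the 12 kidney libraries. Liver exceeded heart by 2.19 ± 0.30 on the log2 scale, with overlapping ranges. This is a description, since Trhde failed the filter on low counts in heart and entered the model through its liver counts. From the summed counts, the ratio of liver to kidney was 511 with a 95% interval (exact Poisson, of the kidney count) of 91.7 to 20185, and that of heart to kidney 95.1 with an interval of 17.1 to 3757. These intervals and the floor for Dio1 cover counting error only.

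Per kilobase of annotated exon, the order of the levels differed between tissues. Dio1 led in liver at 34.3 ± 19.3 CPM per kb (SD, n = 12) and in kidney at 11.8 ± 3.49, each time followed by Slc16a10 at 22.6 ± 1.89 and 10.5 ± 1.01. In heart Thra led at 7.79 ± 0.572 CPM per kb, followed by Slc16a10 at 3.32 ± 0.190 and Thrb at 2.81 ± 0.312. The least abundant gene per length was Trhde in liver and kidney, at 0.180 ± 0.150 and 0.000319 ± 0.00111 CPM per kb. In kidney Thrb (5.77 ± 0.372), Thra (4.94 ± 0.557) and Crym (4.67 ± 0.275) lay close together below them, while in liver Thrb (5.45 ± 0.667), Thra (1.08 ± 0.265) and Crym (0.529 ± 0.117) were spread out. The levels of Thra leave out pairs at the Nr1d1 overlap. Against the summed strand columns these were 75.77% in liver, 41.26% in heart and 41.37% in kidney, so the place of Thra rests on the column used.

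**Figure D2:**
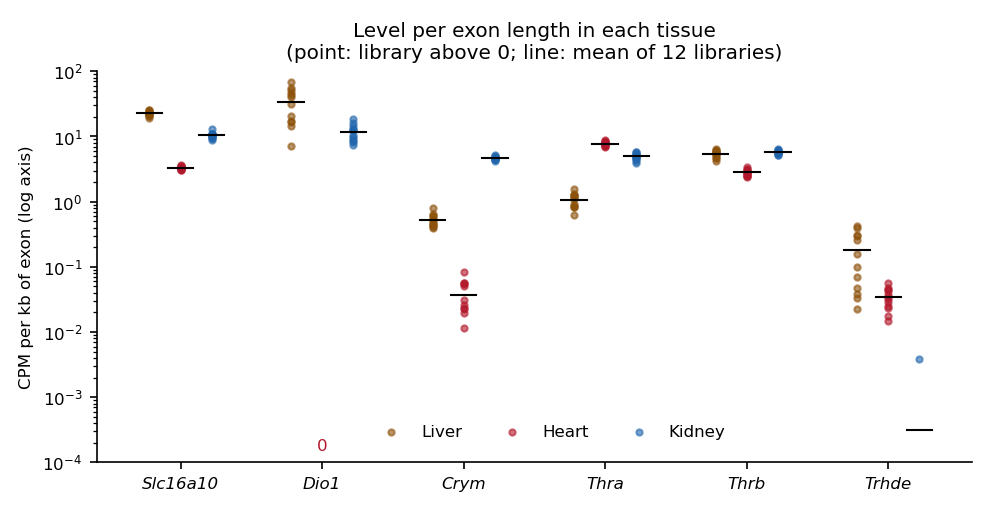
Level per kilobase of exon (log axis, CPM per kb) of the 6 genes in each library of liver, heart and kidney; short lines mark the mean of 12 libraries and a 0 marks Dio1 in heart. Dio1 leads in liver and kidney at means of 34.3 and 11.8, and Thra leads in heart at 7.79.

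The balance of the receptor genes was followed as the ratio of Thrb to Thra per kilobase within each library, which does not depend on scaling. It lay between 3.67 and 9.29 in liver with a median of 4.95, between 0.917 and 1.36 in kidney with a median of 1.18, and between 0.286 and 0.487 in heart with a median of 0.356. The 3 tissues did not overlap. Since the pairs left out at the Nr1d1 overlap were most in liver, the ratio was also taken from the summed strand columns, where the medians were 1.27, 0.701 and 0.221 and the ranges of liver (0.702 to 3.08) and kidney (0.483 to 0.907) overlapped. None of the 9 comparisons of ages passed, with two-sided exact permutation tests of 4 against 4 libraries giving p-values between 0.0571 and 0.914 and adjusted values between 0.257 and 0.914. The smallest p that 70 splits allow is 0.0286. After adjustment over the 9 comparisons, a single comparison at that p could not pass. These tests could therefore hardly detect a change of the ratio with age. The largest difference was in heart, where the mean log2 ratio was -1.68 ± 0.16 (SD, n = 4) at 10 weeks and -1.31 ± 0.22 at 12 weeks.

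**Figure D3:**
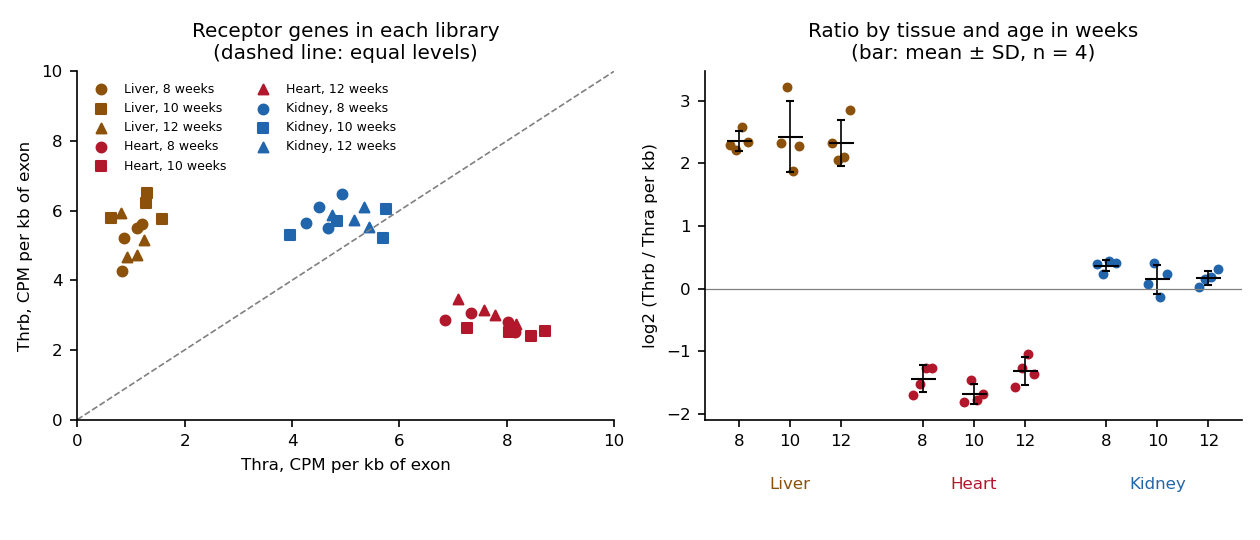
Left, Thrb against Thra in CPM per kb of exon for each of the 36 libraries, with a dashed line at equal levels; right, log2 of their ratio by tissue and age in weeks, with points for libraries and bars for the mean ± SD of 4. Heart lies below equal levels, liver far above and kidney close to the line.

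Across ages, the question was whether any of these genes changed between 8 and 12 weeks within a tissue. No gene of the group reached an adjusted p under 0.05 in edgeR in any of the 9 comparisons, of 6 tested in liver, 5 in kidney and 3 in heart. Dio1 and Crym in heart and Trhde in heart and kidney were too scarce to pass the filter on low counts. Of all genes tested, the same test called 0.239% in liver at 12 against 8 weeks, 0.0204% at 10 against 8 and 0.0545% at 12 against 10. It called 4.56%, 1.06% and 0.0396% in heart and 0.0567%, 0.929% and 0.482% in kidney for the same comparisons. At an unadjusted p under 0.05, Dio1 and Trhde passed in liver at 12 against 8 weeks (15.1% of all genes) and at 10 against 8 weeks (14.3%). Dio1 passed in kidney at 10 against 8 (16.5%) and 12 against 10 weeks (16.4%), Thra in kidney at 12 against 8 weeks (11.7%) and Thrb in heart at 12 against 10 weeks (11.7%). DESeq2 called Dio1 and Trhde in liver at 12 against 8 and at 10 against 8 weeks, and Dio1 in kidney at 10 against 8 and at 12 against 10 weeks. It called 2.88%, 2.46%, 3.85% and 3.72% of all genes in these comparisons, and no gene of the group in the other 5. Without the filter on low counts, edgeR called the same genes in the same comparisons, where it called 0.96%, 1.02%, 2.39% and 2.23% of all genes. limma-voom called none in any comparison, and between 0.0204% and 4.8% of all genes.

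**Figure D4:**
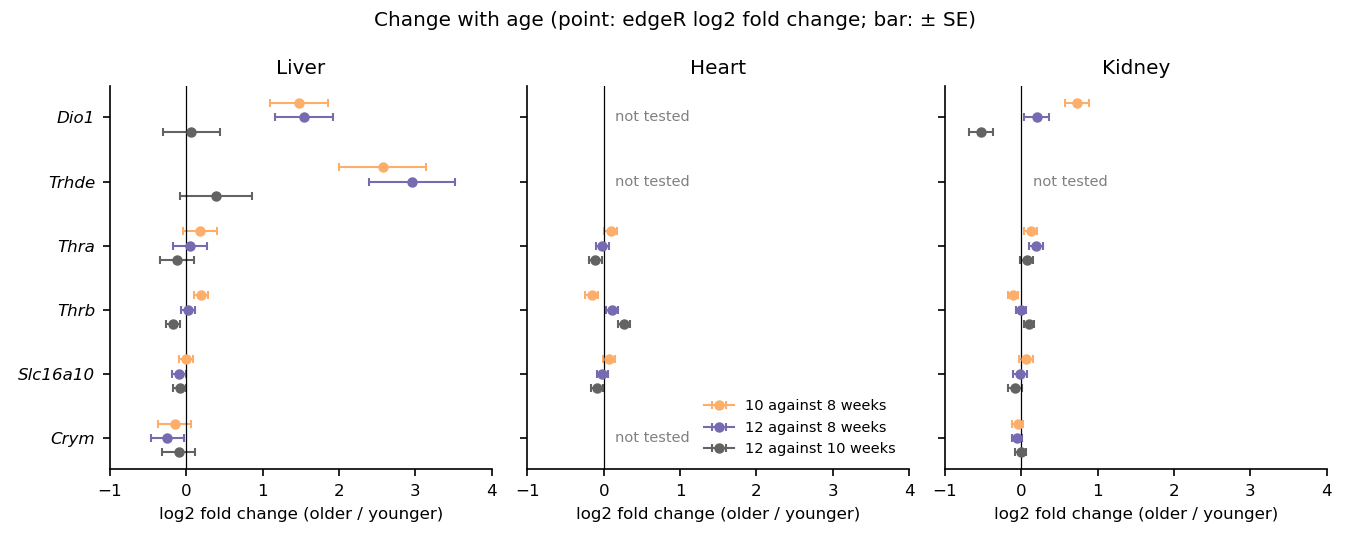
Log2 fold change with age in liver, heart and kidney (horizontal axis; points are edgeR estimates, bars ± SE) for each gene and pair of ages. Trhde and Dio1 in liver, at 2.96 and 1.54 for 12 against 8 weeks, stand far from 0 with wide errors, Dio1 in kidney is at 0.73 for 10 against 8 weeks, and the other genes lie between -0.25 and 0.27.

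Dio1 in liver measured 40.5, 33.5, 33.0 and 13.9 CPM in replicates 1 to 4 at 8 weeks. The 10-week replicates 1 to 4 had 134, 28.2, 83.9 and 101 CPM, and the 12-week replicates 79.5, 109, 62.0 and 91.3 CPM. Every 12-week library was above every 8-week library, and 3 of 4 were at 10 weeks, where replicate 2 fell inside the 8-week range. The log2 fold change of Dio1 was 1.54 ± 0.38 (SE) at 12 against 8 weeks, a 2.91-fold difference with an adjusted p of 0.107 in edgeR. At 10 against 8 weeks it was 1.47 ± 0.38 (adjusted p = 0.147), and between 10 and 12 weeks 0.07 ± 0.37 (adjusted p = 0.956). Without 10-week replicate 2, the adjusted p of Dio1 was 0.0270 at 12 against 8 weeks and 0.0187 at 10 against 8 weeks, the latter with a log2 fold change of 1.76. The ages share an estimate of the spread in this fit, so a 10-week library can alter the adjusted p at 12 against 8 weeks. DESeq2 gave 0.0216 and 0.0373, limma-voom 0.124 and 0.190, and edgeR with the replicate block 0.157 and 0.173. In each of these comparisons, 3 alternatives called Dio1 and 20 did not.

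Trhde in liver measured 0.326, 0.283, 0.190 and 0.398 CPM at 8 weeks, 29 counts in all. It measured 3.56, 0.595, 1.31 and 2.15 CPM at 10 weeks (202 counts) and 3.37, 2.61, 0.837 and 2.52 CPM at 12 weeks (263 counts). All libraries of both older ages were above all 8-week libraries, the lowest of them being 10-week replicate 2 and 12-week replicate 3. Its log2 fold change was 2.96 ± 0.56 (SE) at 12 against 8 weeks, a 7.79-fold difference that missed the threshold with an adjusted p of 0.0512 in edgeR. At 10 against 8 weeks it was 2.57 ± 0.57 (adjusted p = 0.118), and at 12 against 10 weeks 0.39 ± 0.47 (adjusted p = 0.747). In edgeR's test without 10-week replicate 2 the adjusted p of Trhde was 0.0210 at 12 against 8 weeks and 0.0290 at 10 against 8 weeks, and without 12-week replicate 3 it came just under 0.05 at 12 against 8 weeks. At 12 against 8 and 10 against 8 weeks, DESeq2 gave 3.94e-05 and 0.00122 for Trhde, and limma-voom 0.126 and 0.22. At 12 against 8 weeks 7 alternatives called Trhde and 16 did not, and at 10 against 8 weeks 3 did and 20 did not.

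Without overlap between the ages were Dio1 and Trhde of the 6 genes at 12 against 8 weeks in liver, where 7.42% of all genes were without overlap in either direction. At 10 against 8 weeks they were Trhde and Thrb (9.29%). Thrb in liver measured 39.1 to 51.5 CPM at 8 weeks, 53.0 to 59.8 CPM at 10 weeks and 42.8 to 54.4 CPM at 12 weeks, and did not pass the test in any liver comparison.

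Over the 12 liver libraries, Dio1 and Trhde were low together in all 8-week libraries and in 10-week replicate 2. Pearson's r of their log2 CPM was 0.850, a description over libraries that share the ages compared. Trhde ranked 135 among 12131 genes by likeness to Dio1, and Dio1 ranked 20 by likeness to Trhde. The nearest to Dio1 were Npr2, a natriuretic peptide receptor (r = 0.967), Sult2a8, a sulfotransferase (0.962), and Pdilt, a protein disulfide isomerase family member (0.957). Those nearest to Trhde were Lamp1, a lysosomal membrane protein (0.929), Skp1, a subunit of ubiquitin ligases (0.917), and Crat, carnitine acetyltransferase (0.909).

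**Figure D5:**
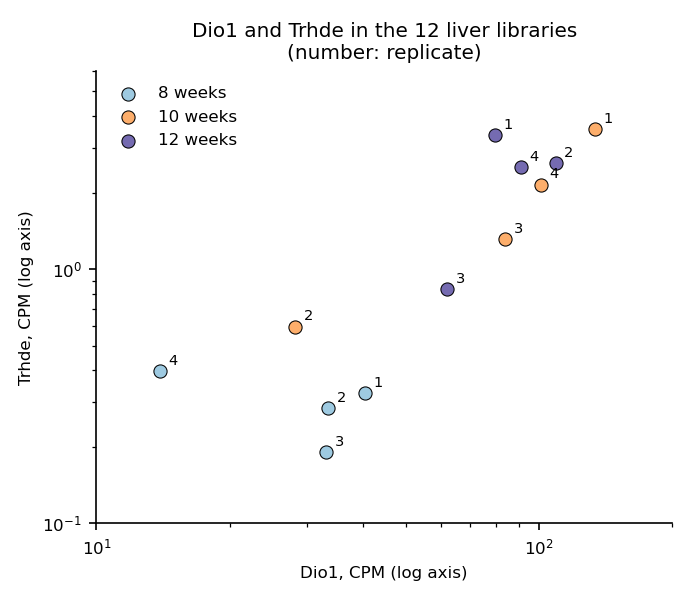
Trhde against Dio1 in CPM (both axes logarithmic) in the 12 liver libraries, coloured by age and numbered by replicate. The 8-week libraries lie between 0.190 and 0.398 CPM of Trhde, 10-week replicate 2 lies next to them, and the others reach at least 62.0 CPM of Dio1 and 0.837 CPM of Trhde.

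Other measures also differed among the liver libraries. Their ranges at each age are given as a description, and several of them overlap between ages. Read pairs without a place in the genome made up 2.81% to 6.96% of a library at 8 weeks, 6.50% to 13.0% at 10 weeks and 6.46% to 9.51% at 12 weeks. All 4 macrophage markers were detected at each age, and summed to 57.4 to 140 CPM at 8 weeks, 154 to 228 CPM at 10 weeks and 84.4 to 93.5 CPM at 12 weeks. The 4 endothelial markers, all detected, summed to 77.8 to 158, 145 to 160 and 62.6 to 91.3 CPM, and the 4 stellate cell and fibroblast markers, all detected, to 116 to 236, 153 to 198 and 101 to 157 CPM. The 6 hepatocyte markers summed to 101419 to 118563 CPM at 8 weeks, 78483 to 92198 CPM at 10 weeks and 94810 to 116347 CPM at 12 weeks. Bmal1, a core clock gene that was chosen after its values were seen, was at 0.840 to 1.76 CPM at 8 weeks and 1.22 to 1.52 CPM at 12 weeks. At 10 weeks Bmal1 was at 1.28 CPM in replicate 2 and between 4.63 and 7.75 CPM in the other 3, the same division as that of Dio1. The 4 brown fat markers summed to 20.7 to 74.6 CPM at 8 weeks, 18.2 to 286 CPM at 10 weeks and 81.6 to 166 CPM at 12 weeks in liver. Nearly all of this was Elovl3, a fatty acid elongase that hepatocytes also express, at 18.1 CPM in 10-week replicate 2, while Ucp1, which defines brown fat, was at 0 at 8 and 10 weeks. The part of these measures in the values of Dio1 and Trhde was not tested. In whole tissue, fewer cells of a type and less RNA per cell cannot be told apart.

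In kidney, Dio1 measured 20.8, 19.5, 18.2 and 14.8 CPM at 8 weeks, 37.1, 25.1, 29.0 and 31.9 CPM at 10 weeks and 16.7, 16.2, 25.0 and 25.2 CPM at 12 weeks. It was thus highest at 10 weeks, with all 4 libraries above all 8-week libraries and 3 of the 12-week libraries below all 10-week ones. Dio1 alone of the 5 genes was without overlap at 10 against 8 weeks, where 8.67% of all genes were. Its log2 fold change was 0.73 ± 0.16 (SE) at 10 against 8 weeks with an adjusted p of 0.0509 in edgeR, -0.53 ± 0.16 at 12 against 10 weeks (adjusted p = 0.123) and 0.21 ± 0.16 at 12 against 8 weeks (adjusted p = 0.669). The call at 10 against 8 weeks turned on small choices. DESeq2 gave an adjusted p of 0.00131 for Dio1, and edgeR 0.0351 without 10-week replicate 2 and 0.0404, 0.0416 and 0.0381 without 12-week replicates 1, 2 and 4. Leaving out other libraries raised it to at most 0.153. Bmal1 in kidney was at 0.891 to 2.15 CPM at 8 weeks, 2.03 to 9.04 CPM at 10 weeks and 1.52 to 1.93 CPM at 12 weeks, and its part in this difference was not tested.

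Between tissues, the change from 8 to 12 weeks was compared by an interaction term in a model of all 36 libraries. The liver minus heart difference of Trhde was 3.18 ± 0.75 (SE) on the log2 scale, and 2.88 without 8-week heart replicate 2. It is given as a description and no test is drawn from it, since Trhde failed the filter in heart and entered this model through its liver counts. Its heart means were 0.315 ± 0.118, 0.257 ± 0.103 and 0.283 ± 0.121 CPM (SD, n = 4) at 8, 10 and 12 weeks. Liver minus heart called 4.16% of all genes. For Dio1 the liver minus kidney difference was 1.35 ± 0.43 and did not pass, with an adjusted p of 0.184 in edgeR, or 0.0470 without 10-week liver replicate 2. This comparison called 0.304% of all genes. Crym, which also failed the filter in heart, had a liver minus heart difference of -1.55 ± 0.55, likewise a description, resting on 7 heart counts at 8 weeks and 19 at 12 weeks. For Thra, Thrb and Slc16a10, the 9 differences lay between -0.13 and 0.20, with adjusted p-values from 0.747 to 1.00. Kidney minus heart called 0.112% of all genes.

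The other 4 genes had small estimated changes with age. Over 33 comparisons their log2 fold changes lay between -0.25 and 0.27 with standard errors of 0.07 to 0.22, and the lowest adjusted p in edgeR was 0.260. Slc16a10 stayed within -0.09 and 0.07 in all 9 comparisons, and Crym within -0.25 and -0.01 in the 6 made in liver and kidney. Thra was between -0.13 and 0.19, the highest being kidney at 12 against 8 weeks (adjusted p = 0.415, edgeR). With the summed strand columns, which also take in Nr1d1 pairs, Thra in liver was at 0.93 for 12 against 8 weeks and 0.98 for 10 against 8 weeks, with adjusted p-values in edgeR of 0.282 and 0.279. Nr1d1 itself was at 18.9 to 56.4 CPM in liver at 8 weeks (median 30.8), 43.2 to 122 CPM at 10 weeks (median 98.4) and 18.6 to 128 CPM at 12 weeks (median 81.9). The labels do not give the time of day of collection, and the part of Nr1d1 pairs in these values of Thra was not tested. Thrb was between -0.17 and 0.27. The highest was heart at 12 against 10 weeks, where the 10-week libraries measured 22.2, 24.2, 23.4 and 23.0 CPM and the 12-week libraries 25.2, 28.8, 31.8 and 27.7 CPM. These did not overlap, as was the case for 5.63% of all genes, and the adjusted p was 0.260.

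The order of the 9 groups followed tissue for 3 of these 4 genes. For Slc16a10, Thra and Crym, neighbouring groups of the same tissue overlapped in every case and groups of different tissues were separate. For Thrb, liver and kidney groups were mixed in the order. Liver at 10 weeks led at 55.8 ± 3.25 CPM (SD, n = 4) and overlapped kidney at 8 weeks (54.5 ± 4.18), and no step between the 6 liver and kidney groups was separate. For Dio1, liver at 10 weeks (86.9 ± 44.4) and 12 weeks (85.5 ± 19.9) overlapped each other. The 12-week liver libraries were separate from kidney at 10 weeks (30.8 ± 5.02), which overlapped liver at 8 weeks (30.2 ± 11.4). For Trhde, liver at 12 and 10 weeks (2.33 ± 1.07 and 1.90 ± 1.27) stood above heart at 8 weeks (0.315 ± 0.118), which overlapped liver at 8 weeks (0.299 ± 0.087).

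The genes whose group means most resembled a member's were taken from 14305 genes with a mean of at least 1 CPM, as descriptions over 9 points that mostly reflect tissue. For Dio1 they were Nit2, Grhpr and Ugdh (Pearson's r of 0.998 each), for Thra Reep5, Acyp2 and Rgmb (0.999, 0.999 and 0.998), and for Slc16a10 Gm11789, Ctso and Lurap1l (1.00, 0.999 and 0.999). For Crym they were Abraxas2, Slc35a1 and Ccdc50 (0.999 each), for Thrb Fam167b, Mavs and Kif13b (0.992 each) and for Trhde Phlda1, Cyp2u1 and E2f8 (0.987, 0.984 and 0.982). Likeness of pattern is not likeness of size. Nit2 in liver had means of 84.8, 114 and 111 CPM at 8, 10 and 12 weeks, where Dio1 went from 30.2 to 86.9 and 85.5 CPM.

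Around these genes, 71 further genes of thyroid hormone transport, conversion, binding, reception and response were listed. In liver 56 of them were tested, and their median log2 fold change at 12 against 8 weeks was 0.05 beside 0.00 over all genes tested. At 10 against 8 and 12 against 10 weeks in liver, edgeR and limma-voom called 0 of 56 and DESeq2 4 in each (2.46% and 3.29% of all genes). An unadjusted p under 0.05 in edgeR was found for 15 of 56 and 13 of 56, beside 14.3% and 14.1% of all genes. In heart 2 of 52 rose and 1 fell at 10 against 8 weeks in edgeR (1.06% of all genes), and 1 fell at 12 against 8 weeks (4.56%). DESeq2 called 6 of the 52 at 10 against 8 weeks (2.42% of all genes) and 9 at 12 against 8 weeks (8.39%). For these comparisons limma-voom called 2 (0.707%) and 1 (4.8%). None was called at 12 against 10 weeks by edgeR, limma-voom or DESeq2 (0.469% of all genes in DESeq2). There 13 of 52 had an unadjusted p under 0.05 in edgeR, beside 11.7% of all genes. In kidney edgeR called 0 of 58 in each comparison, against 0.0567%, 0.929% and 0.482% of all genes at 12 against 8, 10 against 8 and 12 against 10 weeks. limma-voom also called 0, and DESeq2 4 in each (0.776%, 3.85% and 3.72% of all genes, in the same order). In kidney 12, 12 and 18 of the 58 had an unadjusted p under 0.05 in edgeR, beside 11.7%, 16.5% and 16.4% of all genes. No set test was made of any of these counts.

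Among the 11 transporter genes, Slc16a10 averaged 181 CPM in liver, 83.5 CPM in kidney and 26.5 CPM in heart. Per length, the leading transporter gene was Slco1b2, an organic anion transporter, in liver (258 CPM per kb), Slco1a1 of the same family in kidney (103) and Slc3a2, the heavy chain of amino acid exchangers, in heart (7.12).

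Of the 8 deiodination and conjugation genes, Dio1 was the most abundant deiodinase gene per length in liver and kidney. Dio2, the type 2 deiodinase, had no count in liver, 0.350 to 1.47 CPM in heart and 0.187 to 6.30 CPM in kidney. Its 3 highest kidney libraries, 8-week replicate 2 (6.30 CPM), 10-week replicate 1 (4.01) and 12-week replicate 1 (3.76), were also the highest of their ages for the 4 brown fat markers, which summed to 33.4, 9.40 and 14.3 CPM there. Dio2 is well known in brown fat, and the part of such tissue in these values was not tested. Dio3, the inactivating type 3 deiodinase, reached at most 0.563 CPM in any library. Per length, Sult1a1 led this list in liver and heart (120 and 17.4 CPM per kb) and Sult1d1 in kidney (360), both sulfotransferases. Dio1 is a selenoprotein, and none of 7 genes of selenoprotein synthesis and transport was called by edgeR in any comparison. DESeq2 called Selenop and Sephs2, a selenophosphate synthetase gene, in kidney at 12 against 8 (0.776% of all genes) and 12 against 10 weeks (3.72%), and Sepsecs, which makes selenocysteine on its tRNA, at 10 against 8 weeks (3.85%). The leader of that list was Selenop, the plasma selenium carrier, at 708, 344 and 35.8 CPM per kb in liver, kidney and heart.

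Of the 4 binding protein genes, Crym is the cytosolic one, and the others encode plasma carriers made by the liver. Alb, serum albumin, led in liver at 14069 CPM per kb and in heart at 0.469, and Ttr, transthyretin, led in kidney at 64.5. Ttr rose in heart at 10 against 8 weeks by 3.27 ± 0.75 (SE, adjusted p = 0.0442, edgeR), with 1.56 and 2.06 CPM in 10-week replicates 2 and 4 and at most 0.369 CPM in every other heart library. The call for Ttr was kept without 10-week replicate 1 or 3 or 12-week replicate 2 and lost without any of the other 9 libraries, with adjusted p-values up to 0.158, and limma-voom gave 0.200. The 6 hepatocyte markers summed to 16.6 and 23.8 CPM in those 2 libraries and to at most 3.98 CPM in the others, and this list holds Alb and Ttr. The part of hepatocyte RNA in this difference was not tested.

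Of the 15 receptor and coregulator genes, none was called by edgeR in any comparison, while DESeq2 called Tbl1xr1 in liver at 10 against 8 weeks (2.46% of all genes) and Hdac3 at 12 against 10 weeks (3.29%), both of corepressor complexes. Rxra, which encodes the partner of the receptors on DNA, led per length in liver, kidney and heart at 76.2, 24.2 and 11.4 CPM per kb. Among response genes, none of 13 liver targets, Dio1 included, was called by edgeR in liver. At 12 against 8 weeks the median log2 fold change of that list was 0.32, beside -0.004 over all genes tested. In that list 8 genes were above 0 and 5 below. Besides Dio1, DESeq2 called Klf9 and Cpt1a, a fatty acid oxidation gene, in liver at 10 against 8 weeks and Cpt1a at 12 against 10 weeks. At 10 against 8 weeks these went in opposite directions, with edgeR log2 fold changes of 0.51 for Klf9 and -0.43 for Cpt1a, beside 1.47 for Dio1. Pck1, a gluconeogenic enzyme, led the list of liver targets in liver and kidney (1055 and 715 CPM per kb) and Klf9, a transcription factor induced by the hormone, in heart (30.7). In heart, Myh7, the slow myosin heavy chain that thyroid hormone represses, measured 180, 172, 174 and 118 CPM at 8 weeks, 57.0, 61.3, 75.5 and 42.6 CPM at 10 weeks and 81.9, 136, 82.7 and 98.4 CPM at 12 weeks. It fell by 1.45 on the log2 scale at 10 against 8 weeks (SE 0.18, adjusted p = 0.00132, edgeR) and by 0.72 at 12 against 8 weeks (SE 0.17, adjusted p = 0.0310). The first call for Myh7 was kept without any 1 library, and the second was lost without 8-week replicate 2 or 3 or 12-week replicate 1 or 3, with adjusted p-values up to 0.0867. Pln, the other listed gene that the hormone represses in heart, was at -0.10 and -0.37 in these comparisons (adjusted p = 0.744 and 0.0951, edgeR). DESeq2 called Pln at 12 against 8 weeks (8.39% of all genes). Hr, the hairless corepressor and a target of the receptors, rose in heart at 10 against 8 weeks by 0.72 ± 0.13 (adjusted p = 0.0137). Its values were 9.73, 13.2, 9.96 and 9.79 CPM at 8 weeks and 19.0, 13.5, 18.7 and 19.2 CPM at 10 weeks. The lowest value at 10 weeks (13.5) was thus close to the highest at 8 weeks (13.2). Without replicate 4 of 8 weeks or of 10 weeks, the adjusted p of Hr was 0.0515 and 0.0519 in edgeR. Of 8 induced heart targets it was the only one called by edgeR in heart. DESeq2 called Hr as well at 10 against 8 weeks, and at 12 against 8 weeks Hr and Atp2a2, the sarcoplasmic calcium pump gene (8.39% of all genes). The leading gene of that list per length, Myh6, the fast myosin heavy chain, averaged 23285 CPM without a call by edgeR or DESeq2. None of the 7 kidney targets was called by edgeR in kidney, and DESeq2 called only Dio1 among them. Of 8 genes of thyrotropin-releasing hormone and thyrotropin, Trhde was one of 2 tested in liver, and Pgpep1, a peptidase, led in each tissue at 35.4, 9.70 and 4.63 CPM per kb in kidney, liver and heart.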

How the data were processed

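RNA of liver, heart and kidney at 8, 10 and 12 weeks was measured in 36 libraries, grouped by their labels. The authors checked reads with FastQC 0.11.9, trimmed them with cutadapt 4.2, aligned pairs with STAR 2.7.11b to GRCm39 (Ensembl annotation) and deposited whole-number counts per gene, not normalized. The column that disregards strand was used, since between 49.8% and 50.2% of stranded counts fell on the first strand. Of 78239 identifiers, 78168 matched a later annotation of the same build, which gave names, positions and exon lengths.

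Genes were kept as in the study, with a count above 0 in at least 2 libraries and a mean count of at least 10 in some age group. In each tissue, ages were compared with edgeR 4.0.16 (TMM factors, quasi-likelihood test, R 4.3.3) over 14672 genes in liver, 15137 in heart and 17649 in kidney, and tissues and their differences in a model of all libraries over 19716 genes, all with Benjamini-Hochberg adjustment. Receptor ratios took a prior of 0.5 counts. Other tools were limma 3.58.1, DESeq2 1.42.0, python 3.11.15 and scipy 1.17.1. The common coefficient of variation in edgeR, a spread between libraries beyond counting error, was 0.206 in liver, 0.118 in heart and 0.113 in kidney. On simulated data, edgeR found 64% of planted log2 changes of 1 and 84% of changes of 2 at 12 against 8 weeks in liver. The changes were planted in genes drawn from all those tested, so these shares need not hold for Dio1 or Trhde.

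The genes and lists were chosen with earlier results of these data known. Named are the 6 genes, listed genes called at any age, the leading gene per length of each list and tissue, and the 3 most similar genes, except some results that are not reported here. A few more, such as Dio2, Dio3 and Bmal1, were named after their values were seen. Alternatives were other scalings, filters, strand columns and tools, a fit of 2 ages, a replicate block, and each library left out. The study calls the libraries of a group biological replicates.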

Additional observations from a re-analysis of the deposited data

Results flagged for a closer look

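In a check of 58 groups of 4 libraries for a library far from the rest, which flags about 1 in 20 groups by chance, 2 stood out, and both rest on few counts. Trhde in kidney was at 0.0322 CPM in 8-week replicate 4, which is 1 pair, and at 0 in the other 3 libraries of that age. Crym in heart was at 0.0458 CPM in 12-week replicate 1 and between 0.201 and 0.223 CPM in the other 3. The estimated change of Trhde from 8 to 12 weeks was higher in liver than in heart by 3.18 on the log2 scale, with Trhde at 0.299 and 2.33 CPM in liver and 0.315 and 0.283 CPM in heart at these ages. It was noted for an adjusted p under 0.05 in an interaction term, but Trhde passed the filter on low counts only through liver, and without 8-week heart replicate 2 the adjusted p in edgeR was 0.0515, so the value is a description.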

How the results depend on the processing

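The number of the 6 genes called was 0 for every pair of ages in edgeR and changed in liver and kidney. In liver at 12 against 8 weeks it was 2 without a filter on low counts and with DESeq2, and 1 with only the 2 ages compared, with the replicate block and with the second strand column. At 10 against 8 weeks in liver it was 2 without the filter and with DESeq2. In kidney at 10 against 8 weeks it was 1 with RLE scaling, without scaling beyond the library total, without the filter, with DESeq2, with the 2 ages only, with the summed strand columns and with the first strand column, and at 12 against 10 weeks 1 without the filter and with DESeq2. For the change in liver minus heart it was 1 (Trhde, which entered through its liver counts and is given as a description), and 0 with DESeq2, which gave Trhde no adjusted p, and for liver minus kidney 0, and 1 without the filter. Leaving out a library gave 0 to 2 in liver at 12 against 8 and at 10 against 8 weeks, 0 to 1 in kidney at 10 against 8 weeks, 0 to 1 for liver minus heart and 0 to 1 for liver minus kidney. Which genes these were, and the libraries that decide a call, is given with the results, and the cause of each was not tested. Over all genes, edgeR, DESeq2 and edgeR without the filter called 35, 423 and 330 in liver at 12 against 8 weeks, 3, 361 and 350 at 10 against 8 and 8, 483 and 271 at 12 against 10. These were 691, 1270 and 1133, then 161, 366 and 798, then 6, 71 and 308 in heart, and 10, 137 and 513, then 164, 680 and 1005, then 85, 657 and 938 in kidney. Leaving out a library gave 2 to 84 in liver at 12 against 8 weeks, 172 to 1850 in heart and 4 to 30 in kidney. No called value changed sign. Of 99 receptor ratios under an alternative all stayed on the same side of the threshold. The exact test could hardly cross it with so few libraries, so this does not show that the ratio was steady.

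Libraries of different ages share only a replicate number, and their deviations correlated between -0.25 and 0.19. With the replicate block, Trhde in liver at 12 against 8 weeks had an adjusted p of 0.0431 in edgeR, and Dio1 in kidney at 10 against 8 weeks 0.0754. Between tissues of the same age, the same number gave correlations of -0.01 to 0.23, and 12 of 12 liver libraries correlated best with the kidney library of their number, a hint from the data and not from the labels. Depth limits Trhde in liver at 8 weeks (29 counts) and Crym in heart (45 counts).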
